A study of Mus musculus with 9 samples.

Results

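Plasminogen activators and the serpins related to them were examined in gut organoids of mice with a mutated Apc gene. The 6 genes are Plat, Plau, Plaur, Serpine2, Serpinb5 and Serpinb6a, taken by their symbols from the 23955 rows of the count table, whatever their values. Gut organoids are small hollow structures of epithelium that stem cells of the crypts form in culture. RNA-seq was available for 3 groups of 3 samples. MIN organoids came from the normal gut epithelium of APCmin/+ mice, Adenoma organoids from adenomatous polyps of such mice, and Sulindac organoids from polyps of the same kind exposed to sulindac, a nonsteroidal anti-inflammatory drug (NSAID). All 9 samples therefore carry the Apc mutation, and all grew with Noggin, EGF, bFGF, R-spondin1 and B27. The age and sex of the mice, the dose and duration of sulindac on the organoids and any vehicle given to the Adenoma group are not given in the sources used here. The labels call the samples of a group biological replicates but do not say whether they came from separate mice, so the p-values measure the spread between these samples.

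Plasminogen is a circulating zymogen that becomes plasmin, a broad protease that dissolves fibrin and degrades matrix, when it is cut by either tissue-type plasminogen activator (Plat) or urokinase (Plau). Urokinase acts at the cell surface when bound to its GPI-anchored receptor (Plaur), and the serpin Serpine2 (protease nexin-1) traps both activators. Serpinb5 (maspin) and Serpinb6a are intracellular clade B serpins. Maspin does not act as a classical protease inhibitor, and Serpinb6a inhibits other serine proteases such as cathepsin G, so Serpine2 is the direct inhibitor of the activators among the 6 genes. Plat and Plaur also belong to the parainflammation signature of the study, a set of genes for a low-grade inflammatory response within epithelial cells.

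The promoters of 3 genes are shown, picked because these genes were higher in Sulindac than in Adenoma. Each is the 250 bases before the start of the gene in RefSeq (GRCm38.p6), written 5′ to 3′ on the strand of the gene, and capitals mark a match to the AP-1 motif TGANTCA. Plaur lies at chr7:24462233-24462482 on the plus strand, Serpinb5 at chr1:106860925-106861174 on the plus strand, and the first listed promoter of Serpinb6a at chr13:34002795-34003044 on the minus strand.
Plaur: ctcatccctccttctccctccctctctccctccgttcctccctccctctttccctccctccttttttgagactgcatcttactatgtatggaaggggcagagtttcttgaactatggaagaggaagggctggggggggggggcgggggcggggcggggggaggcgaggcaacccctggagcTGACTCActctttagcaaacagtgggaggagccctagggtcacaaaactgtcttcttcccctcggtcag
Serpinb5: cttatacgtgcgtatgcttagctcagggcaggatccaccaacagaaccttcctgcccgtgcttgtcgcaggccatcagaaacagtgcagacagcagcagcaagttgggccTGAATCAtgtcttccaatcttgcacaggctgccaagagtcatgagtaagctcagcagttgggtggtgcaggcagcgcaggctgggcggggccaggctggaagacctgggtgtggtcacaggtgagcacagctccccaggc
Serpinb6a: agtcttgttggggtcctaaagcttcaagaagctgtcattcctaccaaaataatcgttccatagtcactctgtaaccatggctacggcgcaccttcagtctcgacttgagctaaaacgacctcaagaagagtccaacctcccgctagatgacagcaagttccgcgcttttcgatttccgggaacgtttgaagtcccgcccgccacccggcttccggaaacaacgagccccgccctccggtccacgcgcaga
AP-1 is the dimer of Fos and Jun proteins, a transcription factor long linked to inducible protease genes. The motif, which reads alike on both strands, was found once in the promoter of Plaur, starting 69 bases before the gene start, and once in that of Serpinb5, 140 bases before it, and these letters were not in the windows of Serpinb6a or Serpine2. Of 32851 promoters of that length, 6.75% held it. The promoters shown were picked by the Sulindac result of their genes, and a part of AP-1 in that result was not tested. The GC box GGGCGG, searched on both strands and not overlapping the AP-1 matches, occurred 3 times in Plaur, once in Serpinb5, 2 times in the Serpinb6a promoter shown and 6 times in Serpine2, and in 32.7% of all promoters. The TATA motif TATAAA (12.4% of promoters) and the TCF/LEF motif CTTTGAT (3.21%), which is bound by the factors downstream of Apc, had no match in these windows. Of the 6 genes, 4 were matched by symbol in the promoter table, and Plat and Plau were not.

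The samples held 30881206 to 48412477 counts, with the 10 most abundant genes taking 5.15% to 7.48% of them. Levels are given as CPM, counts scaled to the TMM-normalized library total, and the floor of 3 counts lay between 0.0641 and 0.10 CPM, for counting error only. Differences were tested with the quasi-likelihood method of edgeR and adjusted after Benjamini and Hochberg over every gene tested, with a gene called at a false discovery rate (FDR) below 1%. Summed epithelial markers lay between 5565 and 8073 CPM in MIN, 3340 and 4351 in Adenoma and 4582 and 5500 in Sulindac, so the labelled epithelium was present in every group. In summed RNA of this kind, fewer cells of a type and less RNA per cell cannot be told apart. MIN 3 stood apart from the other MIN samples for Plat and Plaur, and the values that rest on it are given with and without it. The levels by sample of all 6 genes are plotted first.

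**Figure D1:**
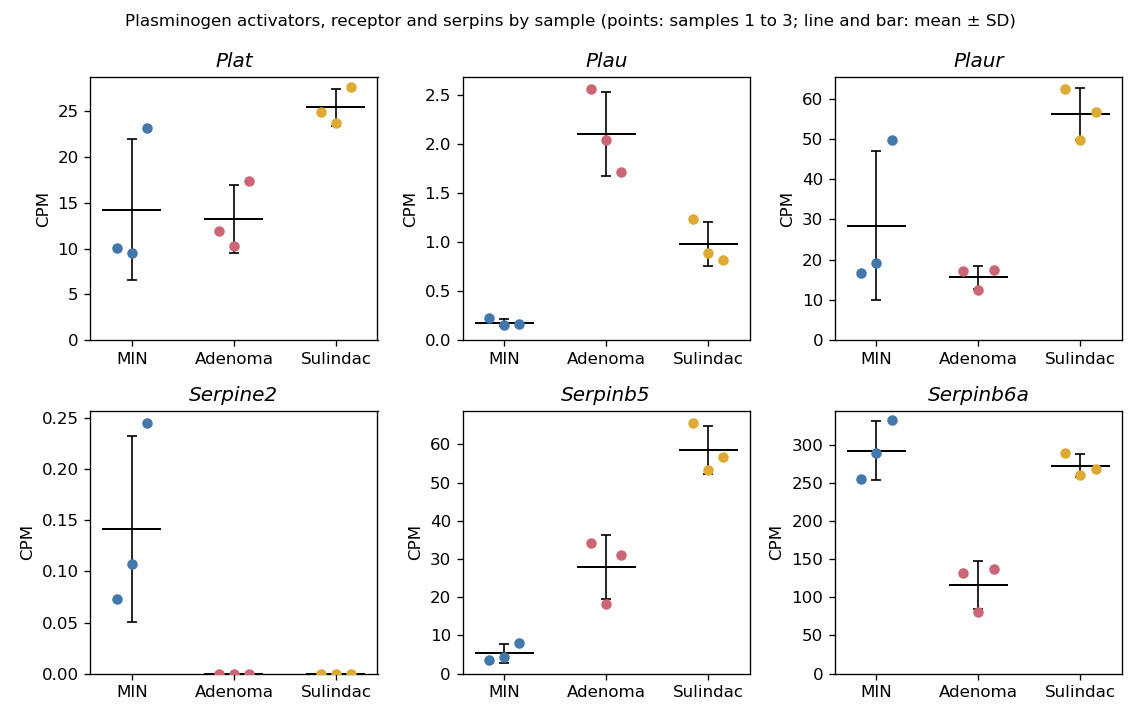
Level of each of the 6 genes (y axis, CPM, linear scale from 0) in the MIN, Adenoma and Sulindac groups (x axis), with a point for each sample, a line for the mean and a bar for the SD over 3 samples. Plau was highest in Adenoma, Serpinb5 was lowest in MIN and highest in Sulindac, Serpinb6a was lowest in Adenoma, and Serpine2 was at 0 in Adenoma and Sulindac.

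Between Adenoma and MIN, the question was which genes of the system differ between polyp and normal epithelium that share the Apc mutation. Urokinase and maspin were higher in Adenoma and Serpinb6a was lower, while Plat and the urokinase receptor did not pass the threshold. Thus 2 of the 5 genes tested were higher and 1 was lower, where 18.5% of all 13744 genes tested were higher and 20.1% lower. The median log2 fold change was -0.11 over the 5 genes and -0.01 over all genes tested. Between Sulindac and Adenoma, which share polyp origin and differ in the drug, 4 of the 5 genes were higher, none was lower, and urokinase missed the threshold in the lower direction. Of all 12962 genes tested there, 8.32% were higher and 9.1% lower, and the median log2 fold change was 1.08 over the 5 genes and -0.01 over all. The count of 4 dropped to 2 when any 1 of the Sulindac samples was left out and in a fit of all 9 samples, with Plat and Serpinb5 no longer called. Over all genes, 1078 of 12962 were called higher with every sample kept. Without Sulindac 1, 2 or 3 these were 489 of 13161, 608 of 13189 and 423 of 13158. The fit of all 9 samples gave 1164 of 13892. Against MIN, Sulindac organoids had higher Plau and Serpinb5, so 2 of 5 genes were higher and none lower, with 23% and 26.8% of all 13551 genes called in those directions and medians of 0.99 and -0.03. Without MIN 3, Plat and Plaur passed as well and 4 of the 5 were higher, where 3405 of all 13732 genes tested were higher. The comparisons share samples with each other and are not independent.

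**Figure D2:**
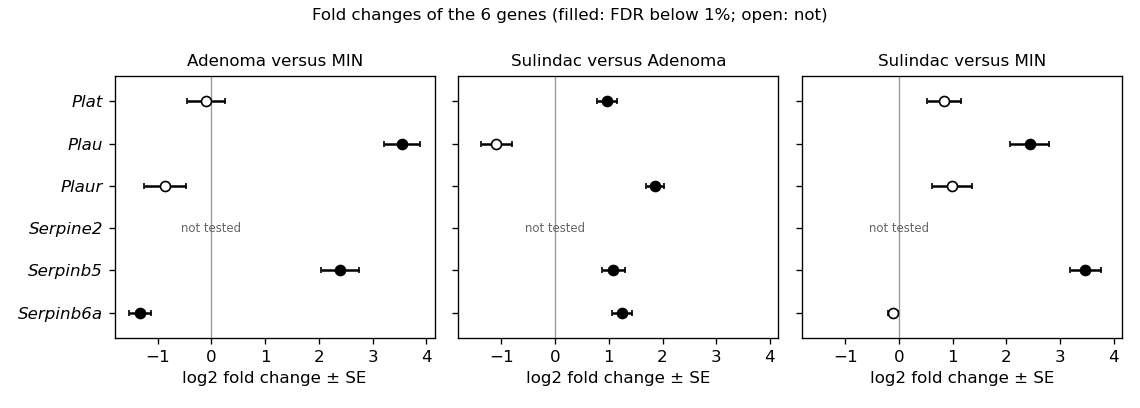
Log2 fold change with its standard error (x axis) for the 6 genes (y axis) in the 3 comparisons, filled where the gene passed an FDR of 1% and open where it did not. Plau went from 3.55 in Adenoma versus MIN to -1.10 in Sulindac versus Adenoma, and Serpinb6a from -1.32 to 1.24, while Serpinb5 was above 0 in all 3 panels.

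Urokinase, the activator that Plaur binds, was close to the floor in MIN and rose in Adenoma. Its counts were 9, 7 and 6 in MIN, 91, 73 and 59 in Adenoma and 37, 29 and 28 in Sulindac. On the CPM scale these were 0.219, 0.150 and 0.163 in MIN, 2.56, 2.04 and 1.71 in Adenoma, and 1.23, 0.887 and 0.815 in Sulindac. The groups did not overlap, and the order was the same in counts and in CPM, with MIN lowest, Sulindac between and Adenoma highest. The mean was 0.177 ± 0.037 CPM (SD, n = 3) for MIN and rose in Adenoma to 2.10 ± 0.428 (SD, n = 3), an 11.7-fold change (log2 fold change 3.55, SE 0.34, edgeR adjusted p = 3.86e-05). With each sample left out it stayed between 3.38 and 3.71. The Sulindac samples, at 0.978 ± 0.224 CPM (SD, n = 3), were still 5.42-fold above MIN (log2 fold change 2.44, SE 0.36, edgeR adjusted p = 0.000429). Against Adenoma the log2 fold change was -1.10 (SE 0.29, edgeR adjusted p = 0.019), which does not pass 1%. DESeq2 gave an adjusted p of 0.0092 for the same difference.

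The second activator, Plat, had another pattern. Its levels were 10.1, 9.51 and 23.2 CPM in MIN, 11.9, 10.3 and 17.4 in Adenoma and 25.0, 23.7 and 27.7 in Sulindac. MIN and Adenoma overlapped, and MIN 3 alone reached nearly the Sulindac level, which lay above every other sample. Plat in Adenoma had a log2 fold change of -0.11 against MIN (SE 0.36, edgeR adjusted p = 0.825), and without MIN 3 the value turned to 0.43 (edgeR adjusted p = 0.168). It rose from 13.2 ± 3.73 CPM (SD, n = 3) in Adenoma to 25.5 ± 2.03 (SD, n = 3) in Sulindac, a 1.95-fold change (log2 fold change 0.96, SE 0.19, edgeR adjusted p = 0.00552). That call rested on most of the samples, since it was lost when Adenoma 1, Adenoma 2 or any 1 of the Sulindac samples was left out, with edgeR adjusted p between 0.0155 and 0.0277 and log2 fold changes of 0.82 to 1.02. In 1 fit of all 9 samples it was lost too (0.95, edgeR adjusted p = 0.0398). Sulindac against MIN gave 0.84 (SE 0.32, edgeR adjusted p = 0.0461) without overlap of the groups, and 1.37 without MIN 3 (edgeR adjusted p = 8.14e-06).

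Because both activators cut the same bond of plasminogen, their share of reads was also compared within each sample, after division of the counts by transcript length. Urokinase made up 2.29%, 1.67% and 0.755% of the reads per length of both activators in MIN, 18.8%, 17.6% and 9.56% in Adenoma, and 5.06%, 3.87% and 3.07% in Sulindac. No groups overlapped, and Plat was the more abundant activator in every sample. The mean share was 1.57% ± 0.772 (SD, n = 3) in MIN, 15.3% ± 5.03 (SD, n = 3) in Adenoma and 4.00% ± 0.998 (SD, n = 3) in Sulindac. The differences of 13.8 percentage points for Adenoma against MIN, -11.3 for Sulindac against Adenoma and 2.43 for Sulindac against MIN each had a two-sided exact permutation p of 0.1, the smallest that 3 against 3 samples allow. This share does not depend on the scaling between libraries.

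**Figure D3:**
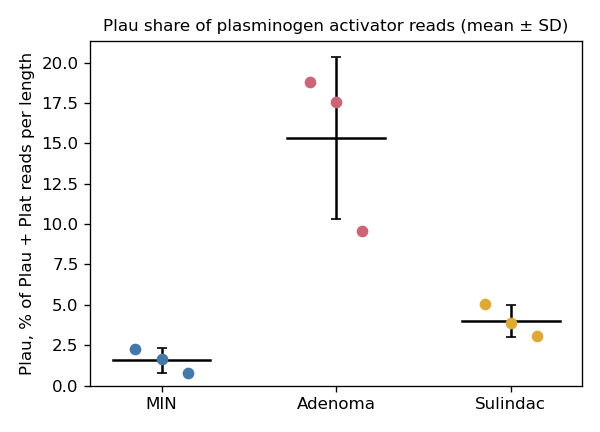
Share of Plau in the reads per transcript length of Plau and Plat together (y axis, percent, from 0) in each MIN, Adenoma and Sulindac sample (x axis), with the mean and SD over 3 samples. Adenoma samples lie between 9.56% and 18.8%, above all Sulindac samples (3.07% to 5.06%) and all MIN samples (0.755% to 2.29%).

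The urokinase receptor was highest after sulindac. Plaur levels were 16.5, 19.1 and 49.7 CPM in MIN, 17.2, 12.3 and 17.4 in Adenoma and 62.5, 49.7 and 56.8 in Sulindac. Every Sulindac sample stood above every Adenoma sample, and MIN 3 lay at the edge of the Sulindac range. Receptor levels rose from 15.6 ± 2.86 CPM (SD, n = 3) in Adenoma to 56.3 ± 6.45 (SD, n = 3) in Sulindac, a 3.63-fold change (log2 fold change 1.86, SE 0.16, edgeR adjusted p = 0.000177), and between 1.72 and 1.96 on the log2 scale with each sample left out. Adenoma against MIN gave -0.86 (SE 0.39, edgeR adjusted p = 0.0956), and -0.19 without MIN 3. Sulindac against MIN gave 0.99 (SE 0.38, edgeR adjusted p = 0.0484) with overlapping groups, and 1.65 without MIN 3 (edgeR adjusted p = 3.11e-06). Receptor and ligand thus had different values in Sulindac versus Adenoma, 1.86 for Plaur and -1.10 for Plau on the log2 scale.

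Serpine2, the inhibitor of both activators among the 6 genes, was barely detected. It had 3, 5 and 9 counts in the MIN samples (0.073, 0.107 and 0.245 CPM) and 0 in all Adenoma and Sulindac samples. Low-count filtering removed it from all 3 comparisons. Its summed level in MIN was 4.82-fold above a floor of 3 counts over the Adenoma group, and 4.42-fold above that floor in Sulindac. These ratios take the 17 MIN counts as exact, so they are not lower limits. With no low-count filter, the edgeR adjusted p was 0.0111 for Adenoma and 0.01 for Sulindac against MIN. Of the fibroblast markers, Pdgfrb moved with it, at 143, 176 and 127 counts in MIN, 1, 0 and 0 in Adenoma and 0 in Sulindac. Pdgfra went the other way, with 5, 8 and 6 counts in MIN and 28, 39 and 25 in Adenoma (log2 fold change 2.49, edgeR adjusted p = 0.000492), and Col1a1, with 13, 10 and 22 counts in MIN and 40, 32 and 54 in Adenoma, gave 1.68 (edgeR adjusted p = 0.0101). Col1a2, Col3a1, Dcn and Lum were at 0 in every sample, and Acta2 had 0 to 3 counts a sample. All 8 fibroblast markers summed to 3.94 to 4.22 CPM in MIN, 1.98 to 2.37 in Adenoma and 0.826 to 1.08 in Sulindac, and their part in the Serpine2 values was not tested.

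Maspin rose at both steps. Serpinb5 levels were 3.46, 4.32 and 8.12 CPM in MIN, 34.2, 18.3 and 31.1 in Adenoma and 65.6, 53.4 and 56.6 in Sulindac, and no groups overlapped. From 5.30 ± 2.48 CPM (SD, n = 3) in MIN it rose 5.28-fold to 27.8 ± 8.43 (SD, n = 3) in Adenoma (log2 fold change 2.40, SE 0.35, edgeR adjusted p = 0.000499). With each sample left out this value lay between 2.16 and 2.84. From Adenoma to Sulindac, at 58.5 ± 6.37 CPM (SD, n = 3), it rose 2.12-fold (log2 fold change 1.08, SE 0.21, edgeR adjusted p = 0.00595). The second call was lost when Adenoma 3 or any 1 of the Sulindac samples was left out (edgeR adjusted p from 0.0162 to 0.0245), with scaling by library size alone (0.92, edgeR adjusted p = 0.0113) and in the fit of all 9 samples (1.07, edgeR adjusted p = 0.0154). Sulindac against MIN gave an 11.1-fold difference (log2 fold change 3.47, SE 0.29, edgeR adjusted p = 2.07e-05), between 3.24 and 3.90 with each sample left out.

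Serpinb6a was by far the most abundant of the 6 and the one that was lower in Adenoma. Levels were 254.8, 289.0 and 332.1 CPM in MIN, 131.5, 80.6 and 137.1 in Adenoma and 289.6, 260.0 and 268.7 in Sulindac. The Adenoma samples lay below all others, and MIN and Sulindac overlapped. From 291.9 ± 38.7 CPM (SD, n = 3) in MIN, Serpinb6a fell to 116.4 ± 31.1 (SD, n = 3) in Adenoma, or 0.399 times the MIN level (log2 fold change -1.32, SE 0.21, edgeR adjusted p = 0.00069). It rose to 272.8 ± 15.2 CPM (SD, n = 3) in Sulindac, 2.36-fold above Adenoma (log2 fold change 1.24, SE 0.18, edgeR adjusted p = 0.00177). Sulindac against MIN gave -0.10 (SE 0.11, edgeR adjusted p = 0.446). Both calls held with each sample left out, at -1.46 to -1.12 and 1.04 to 1.36. Its counts may include reads of other genes. GENCODE M21 places 25.1% of its 50-base stretches, read on either strand, in another gene's transcripts too, most often those of Nqo2 (12.5%). For Plat, Plau, Plaur and Serpinb5 that share was 0%, and for Serpine2 it was 0.303%.

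Compared per length of the longest transcript, as CPM per kilobase, the genes kept a wide order. In MIN the mean level was 176.5 CPM per kilobase for Serpinb6a, 18.9 for Plaur, 5.64 for Plat, 1.98 for Serpinb5, 0.0757 for Plau and 0.0641 for Serpine2, and of neighbours in that order only Plau and Serpine2 had overlapping ranges. In Adenoma, Serpinb6a had 70.4, Serpinb5 10.4, Plaur 10.4, Plat 5.23 and Plau 0.897 CPM per kilobase, and Serpinb5 and Plaur overlapped. In Sulindac the levels were 164.9 for Serpinb6a, 37.4 for Plaur, 21.9 for Serpinb5, 10.1 for Plat and 0.418 for Plau, with no overlap between neighbours. Maspin thus passed Plat in the order of means from MIN to Adenoma. Their ranges in Adenoma just overlapped, with the lowest Serpinb5 sample at 6.839 and the highest Plat sample at 6.894 CPM per kilobase. Urokinase was the lowest of the 5 genes detected in Adenoma and in Sulindac.

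Other genes of the plasminogen system were taken from a list of 22, of which 12 could be tested between Adenoma and MIN. Among these 2 were higher and 3 lower, with a median log2 fold change of -0.32. For this list and those below, the shares of all genes tested were 18.5% higher and 20.1% lower in Adenoma versus MIN. They were 8.32% and 9.1% in Sulindac versus Adenoma, and 23% and 26.8% in Sulindac versus MIN. The medians over all genes were -0.01, -0.01 and -0.03 in that order. The substrate itself was nearly absent. Plg, plasminogen, had 0 to 4 counts in each of the 9 samples and was not tested. Serpinb2, a clade B serpin that inhibits urokinase, had 0 to 4 counts a sample.

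Downstream of the activators, Serpinf2, which encodes the plasmin inhibitor alpha-2-antiplasmin, had 122, 121 and 101 counts in MIN, 79, 242 and 324 in Adenoma and 0, 8 and 6 in Sulindac. Adenoma against MIN gave 1.15 for Serpinf2 (edgeR adjusted p = 0.058), which does not pass 1%. From Adenoma to Sulindac it fell (log2 fold change -5.37, SE 0.75, edgeR adjusted p = 0.00139). Lrp1, the endocytic receptor that clears complexes of activators and their inhibitors, fell at both steps, with mean levels of 83.8 CPM in MIN, 24.2 in Adenoma and 10.6 in Sulindac (log2 fold changes -1.79 and -1.18). The second of these calls was lost without Adenoma 1, Adenoma 2, Sulindac 2 or Sulindac 3, at log2 fold changes of -1.22 to -0.95. Anxa2, a cell surface docking protein for Plat and plasminogen, had 605.0, 626.9 and 877.7 CPM in MIN, 437.2, 294.9 and 561.5 in Adenoma and 774.2, 572.0 and 686.6 in Sulindac. Adenoma against MIN gave -0.70 for Anxa2 (edgeR adjusted p = 0.0381), and -0.73 when samples were blocked by replicate number (edgeR adjusted p = 0.00677). Sulindac against Adenoma gave 0.67 for it without overlap of the groups (edgeR adjusted p = 0.0462), which does not pass 1%. In Sulindac versus Adenoma, 1 of 11 genes on the list was higher and 2 were lower (median 0.18), and in Sulindac versus MIN 3 of 12 were higher and 3 lower (median -0.26).

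Among 32 other serpins, 8 could be tested, and 3 were higher and 2 lower in Adenoma than in MIN (median log2 fold change 1.23). In Sulindac versus Adenoma 1 was higher and 1 lower (median -0.90), and in Sulindac versus MIN 5 were higher and 2 lower (median 1.81). The genes called at both steps were clade B serpins like maspin. Serpinb11 rose from a mean of 0.04 CPM in MIN to 76.5 in Adenoma and fell to 40.0 in Sulindac (log2 fold changes 10.78 and -0.93). The MIN samples had 2, 1 and 2 counts of it, so the first value depends on the small count that the fit adds, and the second call was lost without Adenoma 2, Adenoma 3, Sulindac 1 or Sulindac 2 (-0.88 to -0.81). Serpinb1a, an inhibitor of neutrophil proteases, fell from 169.5 CPM in MIN to 15.5 in Adenoma and rose to 51.5 in Sulindac (-3.45 and 1.75), which is the order of directions seen for Serpinb6a, but its second call was lost when Adenoma 2, Adenoma 3 or any 1 of the Sulindac samples was left out, with library size alone and with no low-count filter (1.31 to 1.97).

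Of 22 matrix metalloproteinases and their inhibitors (TIMPs), 10 were tested between Adenoma and MIN, with 6 higher and 2 lower (median 1.97). In Sulindac versus Adenoma 1 of 8 was higher and 2 were lower (median -0.43), and in Sulindac versus MIN 6 of 10 were higher and 2 lower (median 1.79). Matrilysin (Mmp7), an epithelial matrix protease, had mean levels of 187.5 CPM in MIN, 704.3 in Adenoma and 157.1 in Sulindac, and both changes passed (1.91 and -2.16). Mmp14, a membrane-bound matrix protease, had 5.96, 117.0 and 53.6 CPM in the same order (4.30 and -1.12). Like urokinase, both were highest in Adenoma.

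The list of 19 epithelial serine proteases and their inhibitors had 16 genes tested in Adenoma versus MIN, 3 higher and 8 lower (median -0.71), 14 in Sulindac versus Adenoma, 2 higher and 5 lower (-0.51), and 15 in Sulindac versus MIN, 3 higher and 7 lower (-0.48). Tmprss6 (matriptase-2) rose and then fell, at 0.07, 1.18 and 0.04 CPM (3.97 and -4.72). It had 1, 3 and 5 counts in MIN and 1, 1 and 2 in Sulindac, near the floor, so the size of both values is uncertain. Its second call was lost when any 1 of the Sulindac samples was left out. Klk1, tissue kallikrein, fell at both steps from 31.5 CPM in MIN to 1.25 and 0.27 (-4.65 and -2.19), as did Prss23 from 55.7 CPM to 12.2 and 5.76 (-2.18 and -1.08). The second call of Prss23 was lost without Adenoma 1, Adenoma 2, Sulindac 1 or Sulindac 3 (log2 fold changes -1.04 to -0.93).

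Fibrin, the main substrate of plasmin, forms through coagulation, and of 14 genes for its initiators and for protease-activated receptors 8 were tested in Adenoma versus MIN, with 3 higher and 3 lower (median -0.20). In Sulindac versus Adenoma 2 of 7 were higher and 2 lower (-1.08), and in Sulindac versus MIN 2 of 7 were higher and 3 lower (-2.45). Tissue factor (F3), which starts coagulation, had 31.8, 33.6 and 170.4 CPM in MIN, 7.30, 5.17 and 7.0 in Adenoma and 12.6, 13.7 and 16.6 in Sulindac. MIN 3 was high for it, as for Plat and Plaur. The log2 fold change was -3.59 for Adenoma against MIN and -2.33 without MIN 3, and 1.15 for Sulindac against Adenoma. The first of these calls was lost when any 1 of the Adenoma samples was left out and with no low-count filter, and the second without Sulindac 3 (1.03, edgeR adjusted p = 0.0127) and in the fit of all 9 samples (edgeR adjusted p = 0.145). Prothrombin (F2) was low throughout, at 0.30, 2.75 and 0.17 CPM (3.20 and -4.01), and lost its first call without MIN 1 or MIN 2 and its second without Sulindac 2 or Sulindac 3. Procr, the endothelial protein C receptor, rose at both steps, at 0.11, 5.81 and 18.4 CPM (5.74 and 1.67). The MIN samples had 7, 1 and 5 counts of it, near the floor, so the size of the first value is uncertain. Its second call was lost without Sulindac 1 or Sulindac 3.

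**Figure D4:**
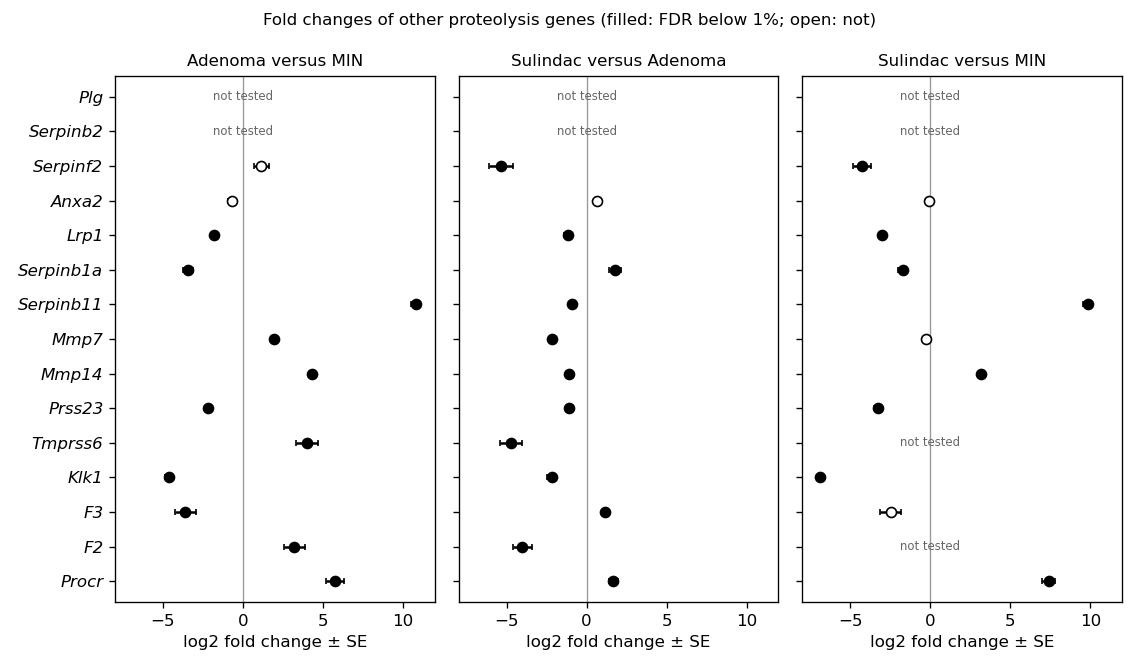
Log2 fold change with its standard error (x axis) for 15 other proteolysis genes (y axis) in the 3 comparisons, filled where FDR was below 1%, open where it was not, and marked as not tested where counts were too low. Serpinf2 lies at -5.37 in Sulindac versus Adenoma, and Mmp7 at 1.91 and then -2.16.

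Leukocytes and fibroblasts are rich sources of plasminogen activators in gut tissue, so their markers were checked. Leukocyte markers summed to 5.0 to 6.70 CPM in MIN, 8.35 to 16.6 in Adenoma and 2.97 to 4.27 in Sulindac. Emr1, a macrophage marker, was at 0 in all samples. Ptprc, which marks all leukocytes, had 0, 1 and 0 counts in MIN, 8, 4 and 4 in Adenoma and 0 in Sulindac, and was too low to be tested. With no low-count filter its edgeR adjusted p was 0.00949 for Adenoma against MIN and 0.0135 for Sulindac against Adenoma. Cd68 was highest in Adenoma like Plau, at means of 1.67 CPM in MIN, 11.5 in Adenoma and 3.31 in Sulindac. Of the fibroblast markers, Col1a1 (0.376, 1.19 and 0.420 CPM) and Pdgfra (0.152, 0.866 and 0.539 CPM) had their highest mean in Adenoma too. The part of these markers in the Plau values was not tested. In Adenoma versus MIN 1 of 3 leukocyte markers tested, Cd68, was higher, and Itgam (-4.02) and Lyz2 (-5.07) were lower. Of the 3 fibroblast markers tested 1 was higher and 1 lower. Endothelial markers summed to 1.44 to 3.16, 3.01 to 7.61 and 3.73 to 4.71 CPM in the same order of groups. Of the 2 tested in Adenoma versus MIN, Pecam1 was lower (log2 fold change -2.18, edgeR adjusted p = 0.00312). Its mean levels were 0.399, 0.0849 and 0.0315 CPM. Vwf, at means of 1.77, 4.62 and 3.85 CPM, gave 1.39 and was not called (edgeR adjusted p = 0.0221). Glial and neural markers summed to 1.63 to 2.33, 1.18 to 1.79 and 0.581 to 1.08 CPM, with Sox10 at 0 in every sample.

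The genes whose pattern over the 9 samples was nearest to each of the 6 were found by the root mean square difference of centred log2(CPM + 0.5) among 13892 genes, as a description. Nearest to Plat were Tnfrsf12a (0.16), Sat1 (0.18) and Acot9 (0.19). Nearest to Plau were Hoxa9 (0.12), Frmpd1 (0.15) and 2610203C22Rik (0.15), each at a mean below 2 CPM in every group. Plaur was nearest to Pgap1 (0.28), Stbd1 (0.28) and Paqr5 (0.31), and Serpinb5 to Cbr2 (0.24), Lynx1 (0.26) and Plk2 (0.31). Serpinb6a was nearest to Grtp1 (0.07), Metrnl (0.15) and Gpr160 (0.16), with Grtp1 at mean levels of 43.3 CPM in MIN, 17.7 in Adenoma and 38.5 in Sulindac. Serpine2 was too low to be placed.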

How the data were processed

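RNA was sequenced from 9 organoid samples, and the authors deposited raw counts per gene symbol, with no normalization. The submitters' processing notes name Bowtie2 2.2.4, RSEM and the build mm9, and the annotation and strand setting are not given in the sources used here. The sample titles gave each group and replicate number. The third column of MIN 1 equals the sum of its runs in all 23955 rows. The runs gave a chi-square per gene of 1.19, close to counting error, so they were counted as 1 sample. MIN 1 and MIN 2 gave 18.4, while MIN 3 gave 72.9 with MIN 1 and 65.4 with MIN 2.

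Low counts were removed by filterByExpr and libraries scaled by TMM. Each pair of groups was then fitted alone with glmQLFit (robust) and tested with glmQLFTest of edgeR 4.0.16 under R 4.3.3, with Benjamini-Hochberg adjustment at an FDR of 1%. CPM were computed from the counts over all 9 samples. The script was tested on simulated data. Same-numbered Adenoma and MIN samples deviated together from their group means (r = 0.13, 0.11 and 0.19 across genes), so the replicate number was also used as a block. Unlike-numbered pairs gave 0.053 and 0.068 between samples 1 and 2, and -0.15 to -0.12 where 1 of the pair was a sample 3. The blocked value is printed where it changed a call.

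The 6 genes and the gene lists were chosen with earlier results of these data known. Named genes were the 6, Plg, Serpinb2, Serpinf2 and Anxa2, list genes called in both Adenoma versus MIN and Sulindac versus Adenoma, and the 3 nearest patterns per gene. Pdgfrb, Pdgfra, Col1a1, Acta2, Ptprc, Itgam, Lyz2, Cd68, Pecam1 and Vwf were named after their values were seen. Some genes of the lists are not reported here, though counts over a list include them. Alternatives were scaling by RLE or by library size alone, dropping the low-count filter or requiring at least 10 counts in each sample, a joint fit of the 9 samples, the replicate block, omitting single samples, the first run of MIN 1, DESeq2 1.42.0, an FDR of 5% and a minimum change of 2-fold. For the urokinase share, raw counts without length scaling were tried. Sequence sharing and transcript lengths came from GENCODE M21 (GRCm38), and promoters from RefSeq.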

Additional observations from a re-analysis of the deposited data

How the results depend on the processing

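Of 233 recomputed log2 fold changes of the 5 genes tested, 211 kept their direction and side of the threshold, 13 no longer passed, 6 newly passed and 3 turned sign. The 3 were Plat in Adenoma versus MIN, which never passed, at 0.025 with library size alone, 0.43 without MIN 3 and 0.046 without Adenoma 2 (-0.35 to 0.43 over left-out samples). For the other named genes 556 of 614 kept both, and Anxa2 in Sulindac versus MIN turned to 0.13 without MIN 3 and 0.066 without Sulindac 2 (-0.17 to 0.13). Of 188 recomputed counts of called genes, 161 stayed within 1.5 times. In Adenoma versus MIN and in Sulindac versus MIN, requiring at least 10 counts left 1 of the 6 genes higher, because Plau could no longer be tested. In Sulindac versus Adenoma, library size alone gave 603 genes higher and 1983 lower (23.3% of calls higher, against 47.8%) and moved the median of all genes to -0.18. The fit of all 9 samples gave 2 of the 6 genes higher, DESeq2 gave 1 lower and 1778 of all genes higher, an FDR of 5% gave 1 lower with 2034 and 2374 of all genes, and a 2-fold minimum gave 365 and 703 (34.2% higher). With samples left out, 2 to 4 of the 6 genes, 423 to 1403 of all genes higher and 386 to 1488 lower were called. Leaving out Adenoma 2 or any Sulindac sample lowered these counts of all genes by over 1.5 times, to the fewest without Sulindac 3. In Sulindac versus MIN, 2 to 4 of the 6 genes were higher with samples left out (4 without MIN 3), 4 at an FDR of 5%, and a 2-fold minimum gave 1501 and 2104. For Adenoma versus MIN, library size alone gave 57.7% of calls higher, against 48.0%, with a median of 0.12. With the replicate block, calls were 2531 higher and 2733 lower in Adenoma versus MIN, 872 and 1061 in Sulindac versus Adenoma and 3280 and 3791 in Sulindac versus MIN, and no call of the 6 genes changed. Same-numbered samples did not all deviate together in the last 2 comparisons (r = 0.25, 0.21 and -0.07, and -0.03, 0.40 and 0.25). The urokinase share kept its direction under every alternative tried, with differences of 12 to 16.6 points, -14.2 to -9.57 and 1.90 to 2.89. The causes of these shifts were not tested. The 22 Plau counts of MIN in all, and Serpine2 throughout, limit what the depth can show.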
